A study of Mus musculus with 8 samples.

Results

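Intraflagellar transport (IFT) genes, Bardet-Biedl syndrome (BBS) genes and their close partners were measured in the olfactory mucosa of mice that carry or lack a pair of candidate enhancers of the trace amine-associated receptor (Taar) genes. The gene set was chosen by symbol: Ift, Bbs, Tctn or Nphp followed by a number, plus 11 named motor, membrane and transition zone genes. It holds 39 of the 54982 rows of the deposited table. The antisense gene Ift88os was left out, because its symbol goes on past the number. All 39 genes had enough reads to test.

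Control libraries (n = 4) came from mice labelled as control, and deletion libraries (n = 4) from mice lacking TE1 and TE2, the elements called the T element deletion in the labels. The labels give all mice as male, the strain as 129S6;C57BL/6J and the age as postnatal day 30. RNA came from olfactory mucosa as a bulk tissue, which holds many cell types. Samples are numbered within a group, with nothing in the labels on whether they are separate animals, so p-values measure the spread between these samples, which may be technical. Values are scaled reads, which are reads per gene divided by a size factor of the library.

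Cilia are built and maintained by IFT, in which trains of protein complexes carry cargo along the axoneme. The IFT-B complex is tied mainly to outward transport by a heterotrimeric kinesin, and the IFT-A complex mainly to the return by a ciliary dynein. The BBSome is a coat-like complex that rides on these trains and moves membrane proteins, and the transition zone at the ciliary base acts as a gate. In the nose the same machinery serves the immotile sensory cilia of olfactory neurons, which hold the odorant receptors, and the motile cilia of multiciliated respiratory cells. Mice that lack BBS genes are known for a reduced sense of smell and thinned olfactory cilia.

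The libraries held 31655524 to 50748777 reads in genes. The 14 olfactory Taar genes summed to 2899 to 3788 scaled reads among controls and 12.1 to 75.8 among deletion libraries, so every library followed its label at the Taar genes. Deletion replicate 3 went against its label in sex-linked genes: Xist was at 15300.3 scaled reads there and at 4.86 to 86.9 in the other 7 libraries, and 4 Y-linked genes summed to 42.7 against 9175 to 10929.8. Control replicate 2 stood apart in its neuron markers: the 12 mature olfactory neuron markers summed to 470029 scaled reads there and to 565403 to 601139 in the other 7 libraries. The 22 motile ciliated cell markers had their lowest sum there too, at 58255. The sum in control replicate 3 was close to it at 61325, and the others held 66942 to 71468. Gene by gene these libraries were less alike. The median deviation of the motile markers from their own means was -0.34 in control replicate 2 and -0.01 in control replicate 3 (log2 scale). Above their own mean were 6 and 10 of the 22. No marker of either list was at 0, and Omp, the olfactory marker protein, ran from 135973 to 194812 among controls and from 170846 to 190375 among deletion libraries.

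No gene of the set was called different between deletion and control. Of 39 genes tested, 0 had an adjusted p under 0.05 (limma with Benjamini-Hochberg adjustment over 21974 genes), beside 16 of all tested genes, or 0.0728% (31 genes without deletion replicate 4). Before adjustment, 0 of 39 had a limma p under 0.05, against 3.5% of all tested genes, and edgeR and DESeq2 called 0 of the 39. The log2 fold changes ran from -0.14 for Tctn1 to 0.24 for Dync2li1, with a median of 0.04 beside 0.02 over all tested genes. Positive values were 30 of 39, against 54.4% of all tested genes. That count was 28 with TMM scaling, 25 with library totals as the scaling, 25 without control replicate 2 and 33 without deletion replicate 3, with medians of 0.03, 0.01, 0.01 and 0.06. Without control replicate 1, 3 genes, Ift57, Dync2li1 and Ift20, had an unadjusted p under 0.05, beside 10.9% of all genes tested in that fit, and 0 were called. All 39 lay within 0.25 of 0 on the log2 scale, as did 77.1% of all tested genes. Over all 39 genes, estimates with 2 standard errors on either side stayed between -0.40 and 0.50 on the log2 scale.

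**Figure D1:**
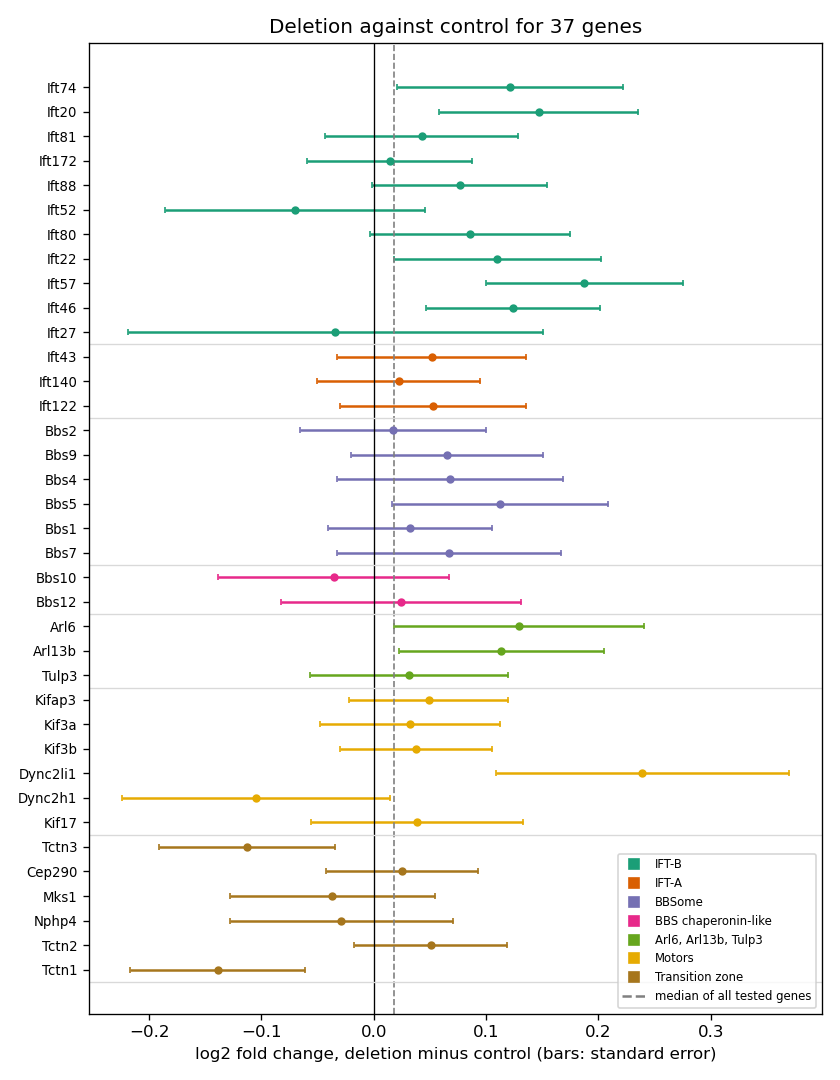
Log2 fold change of scaled reads, deletion minus control, for 37 of the genes (points) with its standard error (bars), 4 libraries a group, grouped by role and coloured as in the key. All points lie between -0.14 and 0.24, and the dashed line is the median of all tested genes, 0.02.

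IFT-B is the complex with the most members in the set, 11, and 9 of their log2 fold changes were positive and 2 negative, with 0 called. Ift57 (chr16:49699233-49765126 in GRCm38), a peripheral subunit, had the smallest p of the set. In order of replicate number, the controls held 1689.6, 1311, 1519.8 and 1613 scaled reads and the deletion libraries 1748, 1645, 1747 and 1816, and values of other genes follow the same order. The ranges overlapped only through control replicate 1, and control replicate 2 was the lowest library. The group levels were 1533 ± 164 scaled reads (SD, n = 4) for controls against 1739 ± 70.6 (SD, n = 4) for the deletion, a log2 fold change of 0.19 ± 0.09 (SE). Its limma p was 0.0547 and its adjusted p 0.869.

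Ift20, a small subunit that also works at the Golgi in sorting proteins toward the cilium, was at 2075, 1580.5, 1855 and 1942 in controls and 2115, 2056, 2108 and 1937 in deletion libraries. Its log2 fold change was 0.15 ± 0.09, and the groups overlapped. Ift74, which pairs with Ift81 to bind tubulin cargo, was at 5115, 3752, 5286 and 4502 in controls and 5087, 4960.3, 4933 and 5132 in deletion libraries. Its controls spanned the deletion libraries on both sides. The remaining 8 IFT-B genes, Ift22, Ift27, Ift46, Ift52, Ift80, Ift81, Ift88 and Ift172, had log2 fold changes from -0.07 for Ift52 to 0.12 for Ift46. Ift88, the subunit of the classic polycystic kidney mouse, was at 4043 ± 375 scaled reads (SD, n = 4) for controls against 4249.8 ± 108 (SD, n = 4) for the deletion. Of the 11 genes, 10 had their lowest value in control replicate 2, all but Ift172.

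Of the IFT-A members 0 of 3 were called, and all 3 log2 fold changes lay between 0.02 and 0.05. Ift43, a small subunit, was at 3213, 2544, 3002 and 3073 in controls and 3212, 3014, 2863 and 3139.6 in deletion libraries. Ift122, a large scaffold subunit, was at 5486, 4241, 4693 and 4890.3 and 5138, 5054, 4757 and 5003 in the same order. For both, the control libraries reached below and above the deletion libraries. Ift140, another scaffold subunit, had a log2 fold change of 0.02 ± 0.07.

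The motors spanned the widest range of the roles, and 0 of 6 were called. Dync2li1 (chr17:84626496-84655588 in GRCm38), the light intermediate chain of the ciliary dynein, had the largest log2 fold change of the set, 0.24 ± 0.13 (SE, with a limma adjusted p of 0.869). It was at 2261, 1373, 1870.1 and 2026 in controls and 2106, 2085, 2241 and 2319 in deletion libraries. Control replicate 1 lay inside the deletion range and the other 3 controls lay below it. Dync2h1, the heavy chain of the same dynein, went the other way at -0.10 ± 0.12, with group levels of 10577 ± 1773 scaled reads (SD, n = 4) for controls against 9773 ± 996 (SD, n = 4) for the deletion.

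The kinesin subunits were close to 0 in log2 fold change: 0.03 ± 0.08 for Kif3a, 0.04 ± 0.07 for Kif3b and 0.05 ± 0.07 for Kifap3, the last of them the non-motor subunit of the trimer. Kifap3 was at 8533, 7253, 7862 and 7584 in controls and 8074, 8335, 7874 and 7974 in deletion libraries, again with the groups overlapping. Kif17, a homodimeric kinesin linked to cyclic nucleotide-gated channel transport into cilia, was at 585 ± 51.7 scaled reads (SD, n = 4) for controls against 599 ± 26.5 (SD, n = 4) for the deletion, a log2 fold change of 0.04 ± 0.09.

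All 6 BBSome subunits had log2 fold changes between 0.02 and 0.11, and 0 were called. Bbs5, a subunit that binds phosphoinositides, was at 1653, 1227, 1582 and 1385 in controls and 1593, 1556, 1509 and 1623 in deletion libraries. The controls held both the lowest and the highest of the 8 values. Bbs2 was at 4441, 3561, 4107 and 3826 and 4162, 4162, 3687 and 4082 in the same order, and its log2 fold change of 0.02 ± 0.08 turned negative under 6 of the 17 alternatives, 4 of them other scalings or count tests. Bbs1, Bbs4, Bbs7 and Bbs9 were at 0.03 ± 0.07, 0.07 ± 0.10, 0.07 ± 0.10 and 0.07 ± 0.09. The chaperonin-like genes Bbs10 and Bbs12, which help to assemble the BBSome, were at -0.04 ± 0.10 and 0.02 ± 0.11. Bbs10 was at 774, 615, 645 and 699 in controls and 653, 686, 591 and 733 in deletion libraries, with the groups overlapping throughout.

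Arl6, the small GTPase that recruits the BBSome to membranes, was at 4054, 2732, 3854 and 3351 in controls and 3914, 3853, 3564 and 3806 in deletion libraries. Arl13b, a ciliary membrane GTPase, was at 4123, 3056, 3926 and 3706 in controls and 3942, 3929.7, 4140.2 and 3916 in deletion libraries. In both genes control replicate 2 was the lowest library, with a wide gap to the next, and the groups overlapped. Their log2 fold changes were 0.13 ± 0.11 and 0.11 ± 0.09. Tulp3, an adaptor that links IFT-A to membrane receptors for ciliary entry, was at 0.03 ± 0.09.

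The transition zone genes of the set were the only role with more negative than positive log2 fold changes, 5 against 3 of 8, and 0 were called. Of 18 further transition zone and gate genes outside the set, 14 were positive and 4 negative. Tctn1 (chr5:122237848-122264460 in GRCm38), a tectonic, was at 1243, 1360.5, 1252 and 1218 in controls and 1200.0, 1218, 1135 and 1057 in deletion libraries. It was the only gene of the 39 whose groups did not overlap, against 2.2% of all tested genes in either direction with 1.22% in the lower and 0.983% in the higher direction. Control replicate 4 and deletion replicate 2 were less than 1 scaled read apart. The log2 fold change was -0.14 ± 0.08 (SE, with a limma adjusted p of 0.869), and exons of Hvcn1 and Gm15481 on the other strand share 1574 and 539 bases with its annotated exons, so its reads are uncertain if strand was not used in counting.

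Tctn3, another tectonic, was at 1882, 2098, 1799 and 1922 in controls and 1927, 1816, 1646 and 1735 in deletion libraries, with overlapping groups. Cep290, a scaffold between microtubules and membrane, Mks1, Nphp4 and Tctn2 had log2 fold changes of 0.02 ± 0.07, -0.04 ± 0.09, -0.03 ± 0.10 and 0.05 ± 0.07. Bbs10 and Cep290 lie on chromosome 10, as the Taar genes do.

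Levels per kb of annotated exon differed over a wide range among the 39 genes. The mean over all 8 libraries was highest for Kifap3, at 1978 scaled reads per kb, followed by Ift74 at 1824 and Ift43 at 1822. Arl6 stood at 1735 per kb and Kif3a at 1308. The order of Kifap3, Ift74 and Ift43 is not resolved: their control levels were 1946 ± 136, 1756 ± 262 and 1792 ± 175 scaled reads per kb (SD, n = 4). Kif17, at 129 per kb, and Tctn1, at 146 per kb, were far below these. Within the trimeric kinesin, Kif3b was at 1110 per kb beside 1308 for Kif3a. Among the dynein chains Dync2li1 was at 1089 and Dync2h1 at 622. Among BBSome genes Bbs2 was highest at 1209 and Bbs7 lowest at 556 per kb. The chaperonin-like genes lay below them all, at 221 for Bbs10 and 189 for Bbs12. Lengths take in every annotated exon. With the exons of the basic annotation the first in order was Ift43 at 3727 per kb, Ift80 was ahead of Ift74, Bbs4 was the highest BBSome gene, ahead of Bbs9 and Bbs2, and Bbs1 the lowest at 775, with Bbs7 at 962.

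**Figure D2:**
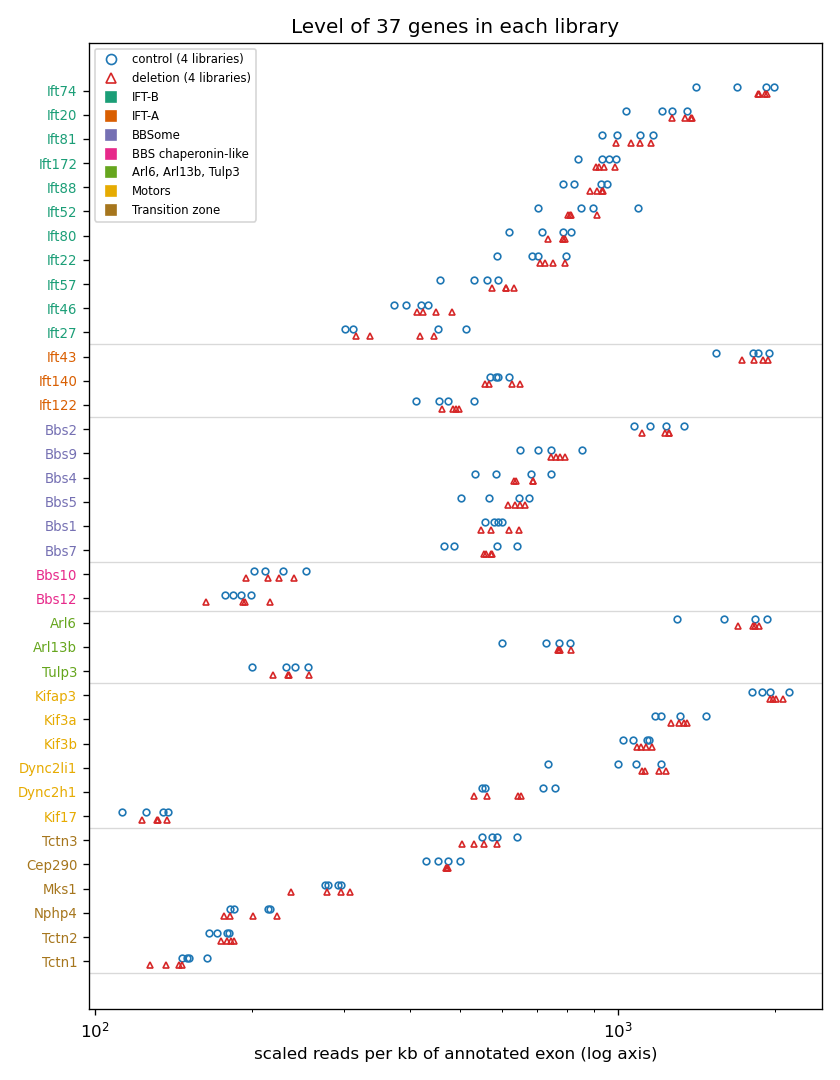
Scaled reads per kb of annotated exon (log axis) of 37 of the genes in each library, circles for the 4 control and triangles for the 4 deletion libraries, with gene names coloured by role. Means over the 8 libraries run from 129 for Kif17 to 1978 for Kifap3, and circles and triangles overlap in every gene except Tctn1.

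The promoters were read for X-boxes, the sites of RFX transcription factors, which are known regulators of ciliary genes. RefSeq promoters on GRCm38.p6, from 250 bases before to 50 bases after the start, were given for 33 of the 39 genes, in 36 sequences. The X-box was searched as GTNNCC and GGNNAC with 2 free bases between them, a pattern that reads the same on both strands. Other spacings were not searched, so a promoter without a match may still hold an X-box. It was present for 9 of 33 genes, or 27.3%, against 2.16% of 27025 genes with a promoter. At this spacing the matches were in 3 of 6 BBSome genes, 4 of 6 transition zone genes and 2 of 9 IFT-B genes, and in 0 of 12 others. Among further genes of the pathway, under other symbols, it was present for 4 of 16 transition zone genes, or 25%, and 3 of 22 IFT and BBS genes, or 13.6%. In the marker lists it was present for 4 of 19 motile ciliated genes and 1 of 9 mature neuron genes. These matches are letters in a window, not shown sites. They are printed 5′ to 3′ on the gene's strand with the matched letters in capitals and up to 8 bases on either side, to show how far they share a core:
Bbs1, chr19:4906605-4906634, minus strand: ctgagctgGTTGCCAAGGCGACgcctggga
Bbs4, chr9:59353464-59353493, minus strand: ctcagctgGTCGCCCGGGAAACggtcggct
Bbs7, chr3:36613489-36613518, minus strand: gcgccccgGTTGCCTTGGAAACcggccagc
Ift22, chr5:136908079-136908108, plus strand: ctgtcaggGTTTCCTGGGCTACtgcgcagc
Ift22, chr5:136908109-136908138, plus strand: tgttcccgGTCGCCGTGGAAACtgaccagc
Ift57, chr16:49699199-49699228, plus strand: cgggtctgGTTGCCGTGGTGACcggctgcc
Mks1, chr11:87853183-87853212, plus strand: gcgtctccGTTGCCAGGGGAACgaggcacc
Nphp4, chr4:152477903-152477932, plus strand: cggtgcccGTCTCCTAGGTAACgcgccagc
Tctn1, chr5:122264411-122264432, minus strand: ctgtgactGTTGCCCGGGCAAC
Tctn2, chr5:124598679-124598708, plus strand: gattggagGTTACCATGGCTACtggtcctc
The letters of Tctn1 form a perfect palindrome. Ift22 holds a pair of matches within a short stretch, 63 and 33 bases before the start, and the match of Ift57 begins 87 bases before it. Those of Bbs1, Bbs4 and Tctn1 begin after the start, at bases 2, 24 and 37 of the transcript. The match of Nphp4 begins 231 bases before the start in a single promoter, and the other promoters given for this gene held none. The whole promoters of Ift57, the gene with the smallest p, and of Ift22 show how the matches sit in them:
Ift22, chr5:136907900-136908199, plus strand: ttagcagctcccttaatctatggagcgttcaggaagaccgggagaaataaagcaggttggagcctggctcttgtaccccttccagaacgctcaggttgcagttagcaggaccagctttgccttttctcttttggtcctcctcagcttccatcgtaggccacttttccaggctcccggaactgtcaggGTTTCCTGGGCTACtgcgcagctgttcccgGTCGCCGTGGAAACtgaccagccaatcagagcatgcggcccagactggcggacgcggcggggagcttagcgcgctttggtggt
Ift57, chr16:49699044-49699343, plus strand: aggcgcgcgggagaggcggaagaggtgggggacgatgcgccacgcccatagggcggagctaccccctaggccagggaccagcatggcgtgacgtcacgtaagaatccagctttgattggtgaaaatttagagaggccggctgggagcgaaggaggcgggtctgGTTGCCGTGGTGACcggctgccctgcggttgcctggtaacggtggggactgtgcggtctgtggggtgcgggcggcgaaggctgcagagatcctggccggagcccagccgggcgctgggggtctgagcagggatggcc
The 9 genes with a match split by direction between deletion and control: 6 had a positive and 3 a negative log2 fold change, from -0.14 for Tctn1 to 0.19 for Ift57.

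The genes varied among the libraries of a group. Control libraries had a median within-group SD of 0.15 on the log2 scale and deletion libraries one of 0.06, and 31 of 39 genes had the larger SD in controls. The same was true of 73.0% of the 11199 tested genes at like levels, where the median SDs were 0.15 and 0.10. Control replicate 2 held the lowest of the 8 values for 25 of the 39 genes, against 42.1% of genes at like levels. It held the highest for 4 of the 39, against 14.0%. By role, it was lowest for 10 of 11 IFT-B, 5 of 6 BBSome and 4 of 6 motor genes, but for 2 of 8 transition zone genes. The median deviation from the gene's own mean in control replicate 2 was -0.28 for IFT-B, -0.23 for the BBSome and 0.07 for the transition zone on the log2 scale. For the 18 further transition zone and gate genes outside the set it was -0.09, and 4 of them were above their own mean. Control replicate 1 held the highest value for 19 of the 39 genes, and the share among genes at like levels was not counted.

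**Figure D3:**
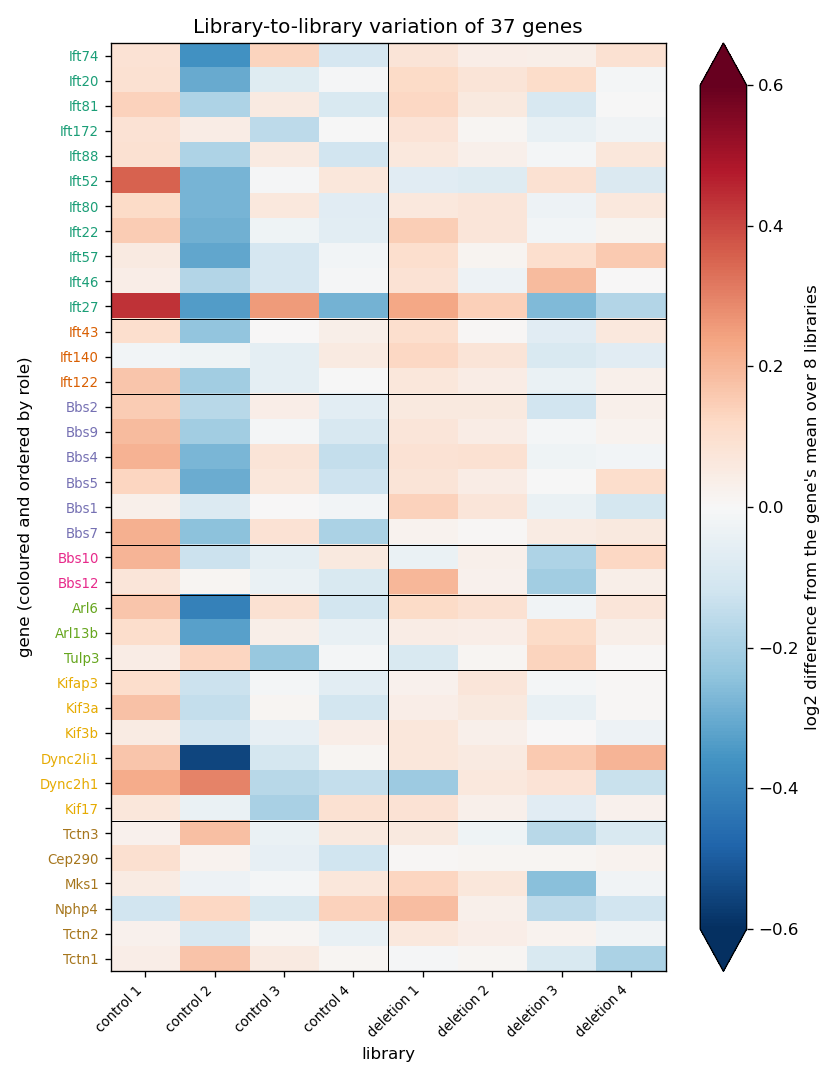
Log2 difference of 37 of the genes (rows, grouped by role) from its own mean over the 8 libraries (columns), blue below and red above, with the colour scale ending at 0.6 on either side. The column of control replicate 2 is blue for most IFT-B, BBSome and motor genes and red for Dync2h1, Tctn1 and Tctn3, among others. Over all 39 genes, 9 were above their own mean in that library.

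This variation was set beside the summed markers of the cells that carry cilia. Mature neuron markers summed to 470029 to 601139 scaled reads among controls and 571259 to 601065 among deletion libraries, and motile ciliated markers to 58255 to 69162 and 66942 to 71468. In bulk tissue, fewer cells of a type and less RNA per cell cannot be told apart. Across the 8 libraries, 26 of 39 genes had a Pearson r above 0.5 with the neuron marker sum, against 28.5% of all tested genes, and the median r was 0.78 beside 0.07. With the motile ciliated sum, 19 of 39 did, against 28.8%, and the median r was 0.48 beside 0.12. No single relation of the set passed: 0 of 39 had an adjusted p under 0.05 with either sum (exact permutation over 40320 pairings, two-sided, Benjamini-Hochberg over 43948 tests), beside 0.0774% of all tested genes for the neuron sum and 0.0273% for the motile sum. At an unadjusted permutation p under 0.05 there were 23 genes for the neuron sum and 8 for the motile sum, against 25.6% and 21.7% of all tested genes.

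These values were lower without control replicate 2, most of all for the motile sum. Without it, 22 of 39 genes had an r above 0.5 with the neuron sum and the median r was 0.51, while for the motile sum the count was 7 and the median r was -0.05. Over all tested genes the shares above 0.5 were then 18.3% and 22.7%. With group means subtracted, and all libraries kept, the medians were 0.77 and 0.42. With library totals as the scaling, 21 of 39 genes had an r above 0.5 with the neuron sum, against 19.8% of all tested genes, and the median r was 0.56. For the motile sum under that scaling the count was 6 of 39, against 18.5%, and the median r was 0.18. By role, 6 of 6 BBSome genes had an r above 0.5 with the neuron sum both with and without control replicate 2. For IFT-B these counts were 10 and 6 of 11, and for the transition zone 2 and 4 of 8.

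Arl6 and Ift80 had the highest r with the neuron sum. For Arl6 Pearson's r was 0.97 (exact permutation p = 0.000347, adjusted p = 0.0908) and Spearman's rho was 0.88 (exact permutation p = 0.00724, adjusted p = 0.214). Without the 2 libraries farthest from the median of the sum, control replicates 2 and 4, r was 0.92, and it was 0.97 within controls and 0.98 within deletion libraries. For Ift80, a peripheral IFT-B subunit named here after its values were seen, r was 0.98 (exact permutation p = 0.000124, adjusted p = 0.0736), rho was 0.98 (exact permutation p = 0.000397, adjusted p = 0.116), and r was 0.93 without the same libraries. Ift74 had an r of 0.96 (exact permutation p = 0.00613, adjusted p = 0.137) but a rho of 0.60 (exact permutation p = 0.132, adjusted p = 0.528), and its r was 0.31 without them, so its relation rests on those libraries.

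Dync2li1, Ift57 and Ift20 had the highest r with the motile ciliated sum. For Dync2li1 r was 0.92 (exact permutation p = 0.00166, adjusted p = 0.115) and rho 0.83 (exact permutation p = 0.0154, adjusted p = 0.26), and r was 0.63 without control replicates 2 and 3, the farthest for this sum. For Ift57 r was 0.91 and fell to 0.32 without them (exact permutation p = 0.00486, adjusted p = 0.134; rho 0.69, exact permutation p = 0.0694, adjusted p = 0.423). For Ift20 r was 0.86 and became -0.08 (exact permutation p = 0.0106, adjusted p = 0.144; rho 0.48, exact permutation p = 0.243, adjusted p = 0.644). Both of the latter relations rest on those libraries. With the neuron sum, r was 0.89 for Dync2li1, 0.83 for Ift57 and 0.87 for Ift20 (exact permutation, adjusted p = 0.212, 0.209 and 0.19). Without control replicate 2 these became 0.09, 0.11 and 0.19, and those with the motile sum 0.86, 0.76 and 0.61.

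The transition zone genes Tctn1 and Tctn3 had negative r with the motile sum. For Tctn1 r was -0.77 (exact permutation p = 0.0229, adjusted p = 0.164; rho -0.74, exact permutation p = 0.0458, adjusted p = 0.372), and -0.53 without control replicates 2 and 3. For Tctn3 r was -0.66 (exact permutation p = 0.0794, adjusted p = 0.259; rho -0.69, exact permutation p = 0.0694, adjusted p = 0.423) and -0.85 without them. With the neuron sum, r was -0.59 for Tctn1 (exact permutation p = 0.188, adjusted p = 0.403) and -0.61 for Tctn3 (exact permutation p = 0.155, adjusted p = 0.362). Without control replicate 2 these became 0.17 and 0.26, so the negative r with the neuron sum rests on that library. With the motile sum and without that library, r was -0.56 for Tctn1 and -0.29 for Tctn3, both closer to 0 than with all libraries.

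**Figure D4:**
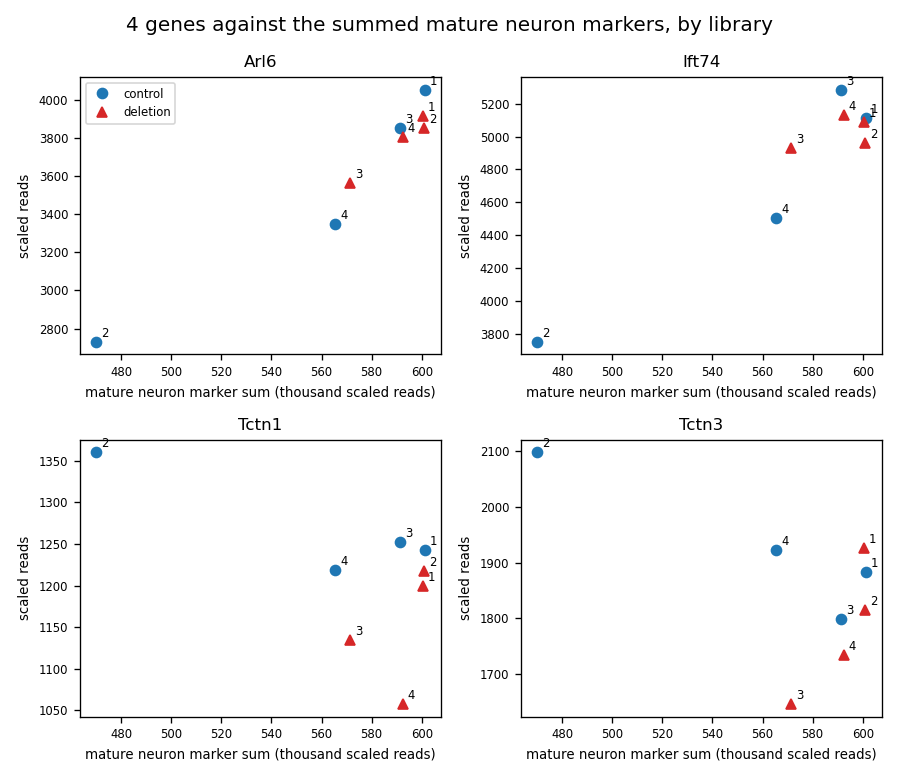
Scaled reads of Arl6, Ift74, Tctn1 and Tctn3 (y axes, not starting at 0) against the sum of 12 mature neuron markers (x axes, with the unit of scaled reads on the axis label), with circles for control and triangles for deletion libraries and replicate numbers beside them. Control replicate 2, at the left of each panel, is lowest for Arl6 and Ift74 and highest for Tctn1 and Tctn3.

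Genes of the pathway that carry other symbols were also without a call. Of 23 further IFT and BBS genes, 0 were called and 0 had an unadjusted limma p under 0.05, with a median log2 fold change of 0.08, 20 positive and 3 negative. The smallest p were those of Tctex1d2, a light chain of the ciliary dynein, and Arl3, a GTPase that releases lipidated cargo in cilia. Tctex1d2 was at 904, 694, 877 and 823 in controls and 932, 905, 929.8 and 942 in deletion libraries, which did not overlap by a margin of about 1 read, and its log2 fold change was 0.18 ± 0.09. The groups did not overlap for 1 of the 23 genes, against 2.2% of all tested genes. Arl3 was at 3253, 2402, 2987 and 2994 and 3198, 3260.3, 3190.5 and 3374, with an overlap, and 0.17 ± 0.09. Of 18 further transition zone and gate genes, 0 passed the adjusted test, and their median was 0.04, with 14 positive and 4 negative. Before adjustment 1 gene of the 18 had a limma p under 0.05, against 3.5% of all tested genes. It was Invs, inversin, at 956, 903, 869 and 816 in controls and 881, 679, 748 and 709 in deletion libraries. Its log2 fold change was -0.24 ± 0.10 (SE, with a limma adjusted p of 0.869). Next in p came Ahi1, jouberin, at -0.11 ± 0.08.

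Markers of other cell types were summed in the same libraries. The 7 sustentacular cell markers summed to 193751 to 264471 scaled reads among controls and 272157 to 287165 among deletion libraries, and the 7 respiratory and secretory markers to 251699 to 416825 and 435015 to 464547. In both lists the groups of sums did not overlap and control replicate 2 was lowest. Of the genes tested in them, 0 of 7 and 0 of 6 were called (limma). Gene by gene, the groups did not overlap for 0 of the 7 and 3 of the 6, against 2.2% of all tested genes. An unadjusted limma p under 0.05 was found for 0 of the 7 and 2 of the 6, against 3.5%. The sums of the other cell types overlapped between the groups. Immature neuron markers summed to 77288 to 83715 among controls and 76965 to 83863 among deletion libraries, and globose basal markers to 9027 to 9803 and 6863 to 10307. Horizontal basal markers summed to 2951 to 6402 and 4543 to 6342, and olfactory ensheathing markers to 4016 to 7932 and 4879 to 9136. The median log2 fold change was 0.11 for the 22 motile ciliated markers and 0.09 for the 12 mature neuron markers, with 0 called in either list. The summed level of the 39 genes was 123987 to 147159 in controls and 134527 to 140224 in deletion libraries, with control replicates 1 and 2 at the ends. The part of these markers in the levels of the 39 genes was not tested.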

How the data were processed

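RNA of olfactory mucosa was sequenced after ribosomal RNA depletion with a stranded total RNA kit, per the labels' protocols, in 4 control and 4 deletion libraries. STAR 2.6.0 and DESeq2 with GRCm38.p6 are named in the submitters' processing notes; no source used here gives the counter, its strand setting or the annotation release. The authors deposited a signal column per library, gene reads divided by a size factor. All values came out as whole reads within a tolerance of 0.001. The authors' log2 fold changes, p-values and test statistic, a score, were deposited beside them and support no result here. Columns headed CIS were taken as the deletion libraries by their number, as they are the only ones not headed WT. Of the 54982 rows, 54161 matched a gene of GENCODE M21, used for coordinates and exon lengths, and 821 did not.

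Genes passing edgeR's filter at a minimum count of 10 were tested after a log2 transform with a pseudocount of 1, using limma 3.58.1 (R 4.3.3), with Benjamini-Hochberg adjustment over 21974 genes and no replicate block. Fold changes are on that scale. edgeR 4.0.16, whose quasi-likelihood test on the recovered reads called 16 genes, and DESeq2 1.42.0 were alternatives, as were TMM and library-total scaling, pseudocounts, filters and each replicate left out. Of these tests limma was checked on simulated data, and edgeR and DESeq2 were not. Values in every library are given for the gene with the smallest p and that with the highest level per kb of each role, and for the 3 highest and 3 lowest in r with the motile ciliated sum. The genes and lists were chosen with earlier results of these data known. Relation p-values were adjusted over all tested genes and both marker sums rather than over the set. Of the 39 genes, 8 share exon bases with a gene on the other strand and 3 with one on the same strand, so their reads are uncertain. Values of 2 of the 39 genes are not reported here, though counts and medians over the set include them.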

Additional observations from a re-analysis of the deposited data

Results flagged for a closer look

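In 4 of 78 groups of 4 libraries, a library lay far from the other 3 of its group, where chance gives about 1 in 20. All 4 groups were deletion libraries, and in all 4 the far library was deletion replicate 3, the library whose sex-linked genes went against its label. The gap to the nearest other library, as a share of the group's whole range, was 0.903 for Ift52, where it was the highest of the 4, and 0.882 for Arl13b, also the highest. It was 0.899 for Ift80 and 0.831 for Bbs2, where it was the lowest. None of these genes was called with or without that library. The cause was not tested.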

How the results depend on the processing

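With limma, edgeR and DESeq2, 0 of the 39 genes were called under every alternative run, and the median log2 fold change stayed between 0.01 and 0.09. The count over all tested genes, 16, was 10 with a mean of at least 50 scaled reads as the filter, where fewer genes were tested, and ran from 13 to 31 with 1 library left out, the highest without deletion replicate 4. Near 0 the direction of some genes turned. Bbs2 went to -8.98e-05 with TMM scaling, -0.0119 with library totals, -0.00344 with edgeR and -0.00724 with DESeq2. With 1 library left out, Bbs2 ran from -0.0351 to 0.0711, Bbs10 from -0.0845 to 0.0259, Ift122 from -0.00757 to 0.116 and Ift43 from -0.0191 to 0.0930, and Ift122 and Ift43 turned without control replicate 2. The cause was not tested. With the replicate number as a block, 0 of the 39 genes and 14 of all tested genes were called. Same-numbered libraries had correlations of 0.386, 0.0545, -0.309 and 0.165 in their deviations from the group means. Replicates 1 and 4 of the controls correlated best with their own number, and replicates 2 and 3 with other numbers. These values do not settle whether the numbers mark pairs. Exon lengths of the basic annotation, chosen after seeing the data, moved 8 of 14 levels per kb.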
